A study of Homo sapiens with 74 samples.

Results

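The genes described here encode the PAF1 complex and the enzymes that add ubiquitin to histone H2B or take it off. They were picked by name for their roles, with earlier results of these data known, and the rule itself uses no measured value: UBE2A, UBE2B, RNF20, RNF40, WAC, USP22, PAF1, CTR9, LEO1 and CDC73, which are 10 of the 28131 genes in the count tables. Their messenger RNA was followed by RNA-seq of polyadenylated RNA in HEL and K562, established cell lines from human leukaemias with erythroid features. In K562, 3 groups were compared: wild-type controls, DOT1L-/- cells (DOT1L KO) and ENL-/- cells (ENL KO). In HEL, controls were compared with cells carrying a DOT1L knockdown (DOT1L KD). The labels do not name the guides or hairpins, and do not say whether a knockout line is a single clone. RNA-seq accounts for 13 of the 74 samples of the series, and the other 61, among them K562 chromatin immunoprecipitation with an antibody to ubiquitinated H2B, were not analysed here.

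The PAF1 complex travels with RNA polymerase II along transcribed genes. PAF1 and CTR9 form its core, CDC73 (parafibromin), LEO1 and the WD-repeat protein WDR61 are further subunits, and RTF1 is the subunit that stimulates H2B ubiquitination. Ubiquitin is charged by the activating enzyme UBA1, passed to the conjugating enzymes UBE2A and UBE2B (human RAD6), and placed on a lysine near the end of H2B by the ligase dimer of RNF20 and RNF40, with WAC as an adaptor that links the ligase to the polymerase. USP22 is the catalytic subunit of the deubiquitinase module of the SAGA coactivator, which removes the mark. Ubiquitinated H2B stimulates DOT1L, the methyltransferase of a lysine in the core of histone H3, so these enzymes act upstream of the enzyme that was depleted. ENL (gene symbol MLLT1) is a reader of acylated histones that belongs to DOT1L-containing complexes.

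Promoter sequences are shown for LEO1 and RNF40, which had the largest differences described below, and for PAF1, the subunit that the ratios below are taken against. RefSeq (GRCh38.p14) held a promoter entry for 8 of the 10 members, that is for all but UBE2B and CDC73, and held 2 starts for RNF40, which gave 9 windows. Each printed window ends before the first base that RefSeq or the count tables place in an exon. The LEO1 window is chr15:51971802-51972028 on the minus strand, the RNF40 window is chr16:30761362-30761611 on the plus strand and belongs to the upstream start, and the PAF1 window is chr19:39391196-39391356 on the minus strand. Capitals mark matches, on either strand, to the TATA box core TATAAA, the CCAAT box CCAAT, the ETS core CCGGAAG and the GATA core GATAA. The sequences read 5′ to 3′ on the strand of the gene.
LEO1: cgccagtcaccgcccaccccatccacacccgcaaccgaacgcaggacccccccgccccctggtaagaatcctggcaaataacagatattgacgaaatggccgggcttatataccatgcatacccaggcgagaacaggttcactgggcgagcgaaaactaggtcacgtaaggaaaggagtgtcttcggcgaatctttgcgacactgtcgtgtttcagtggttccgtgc
RNF40: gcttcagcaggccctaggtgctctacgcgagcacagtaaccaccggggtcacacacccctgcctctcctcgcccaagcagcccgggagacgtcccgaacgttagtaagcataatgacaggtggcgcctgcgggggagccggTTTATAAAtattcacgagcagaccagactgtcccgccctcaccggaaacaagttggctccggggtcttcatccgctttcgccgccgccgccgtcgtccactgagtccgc
PAF1: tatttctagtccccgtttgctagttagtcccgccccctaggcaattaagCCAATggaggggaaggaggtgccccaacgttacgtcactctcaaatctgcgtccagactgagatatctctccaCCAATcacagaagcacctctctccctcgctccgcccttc
In the 250 bases before the RefSeq start, RNF40 held TTTATAAA, which reads as TATAAA on both strands, so its 2 matches overlap. PAF1 held 3 matches to CCAAT, of which the printed window shows 2. CTR9, whose RefSeq upstream window lies within the gene as the count tables draw it and is not printed, held 2 matches to CCGGAAG. LEO1 held no match to any of the 4 motifs, and neither did RNF20, UBE2A, WAC or USP22. The second RNF40 start had 2 matches to CCAAT and 1 to GATAA. Of all 35116 RefSeq promoter windows of this length, 10.7% held TATAAA, 32% CCAAT, 8.52% CCGGAAG and 20.4% GATAA. These matches are letters in a window and were not tested for binding.

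The K562 libraries held 15404944 to 29236703 counts each and the HEL libraries 12151495 to 12811688. The K562 control columns 2 and 3 were identical in every gene and were counted as 1 sample, so K562 had 2 control libraries and 3 of each knockout, and HEL had 2 control and 2 DOT1L KD libraries. The labels do not say that replicates came from separate cultures, so p-values measure the spread between these libraries, which may be technical. DOT1L was 182 ± 5.15 CPM (counts relative to library size, scaled with TMM factors; SD, n = 3) in the DOT1L KO against 263 ± 9.84 (n = 2) in control, and MLLT1 was 154 ± 1.92 (n = 3) in the ENL KO against 216 ± 3.56 (n = 2). In HEL, DOT1L was 29.6 ± 0.641 CPM (n = 2) after knockdown against 92.4 ± 7.12 (n = 2). Transcripts of each targeted gene were therefore still counted, and a count over all exons does not show an edit. All 10 erythroid marker genes were expressed in all 5 groups, with summed levels of 6856 to 7358 CPM in K562 control, 10720 to 11260 in DOT1L KO, 8772 to 8899 in ENL KO, 6743 to 6819 in HEL control and 9475 to 10160 in HEL DOT1L KD. Of 3 monocytic markers, CD14 and CSF1R stayed below 1 CPM, while LYZ reached 327 CPM in the DOT1L KO. The monocytic sum was 32.8 to 35.7 CPM in K562 control, 302 to 327 in DOT1L KO, 19.5 to 20.2 in ENL KO and 44.1 to 50.4 in HEL. The sum of 5 lymphoid markers, mostly CD3D in K562, was 53.2 to 55.2 CPM in K562 control, 17.9 to 22.2 in DOT1L KO, 62.0 to 71.6 in ENL KO and at most 1.95 in HEL, and MS4A1 had no count in any library. The epithelial genes KRT8 and EPCAM summed to 686 to 918 CPM in K562 and 14.2 to 29.8 in HEL. The part of these shifts in the results below was not tested, and in bulk RNA fewer cells of a type and less RNA per cell cannot be told apart.

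All 10 members were well expressed, with between 379 and 11064 counts in every library. The lowest counts were those of UBE2B (379), UBE2A (438) and LEO1 (492). Counting error weighs more at such counts, and its part in the small changes below was not tested. To compare genes with each other, counts were divided by exonic length and scaled to a common total (TPM). In K562 controls the deubiquitinase USP22 (chromosome 17, 20999593 to 21043039, GRCh38, minus strand) stood highest at 167 ± 2.28 TPM (SD, n = 2). The ligase subunit RNF40 (chromosome 16, 30761612 to 30776307, plus strand) followed at 114 ± 5.18 TPM and PAF1 (chromosome 19, 39385630 to 39391195, minus strand) at 86.3 ± 3.73 TPM. WAC (chromosome 10, 28532588 to 28623112, plus strand), UBE2A (chromosome X, 119574467 to 119584429, plus strand) and CTR9 (chromosome 11, 10750987 to 10779755, plus strand) lay between 72.2 and 76.4 TPM on average, and the ranges of neighbours in that order overlapped. LEO1 (chromosome 15, 51938025 to 51971801, minus strand) was at 59.0 ± 1.49 TPM and CDC73 (chromosome 1, 193121958 to 193254812, plus strand) at 35.5 ± 0.554 TPM. RNF20 (chromosome 9, 101533849 to 101563344, plus strand) at 31.7 ± 2.89 TPM and UBE2B (chromosome 5, 134371176 to 134392108, plus strand) at 28.9 ± 1.32 TPM had overlapping ranges and were the lowest.

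The order in HEL controls was different, although levels set across the lines come from separate tables. WAC was highest at 167 ± 5.75 TPM (n = 2), CTR9 was at 158 ± 4.45 and LEO1 at 129 ± 8.93. USP22 followed at 89.0 ± 1.87 TPM. PAF1 at 57.3 ± 5.70 and UBE2A at 56.2 ± 0.209 TPM overlapped. CDC73 at 46.8 ± 0.502, UBE2B at 34.1 ± 2.00 and RNF20 at 31.2 ± 1.26 TPM came next. RNF40, which was second in K562, was last in HEL at 25.9 ± 0.938 TPM. Among genes with at least 1 TPM in their group, RNF40 stood at percentile 86.0 in K562 control and 53.8 in HEL control, and its ligase partner RNF20 stood at 58.0 and 58.5.

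**Figure D1:**
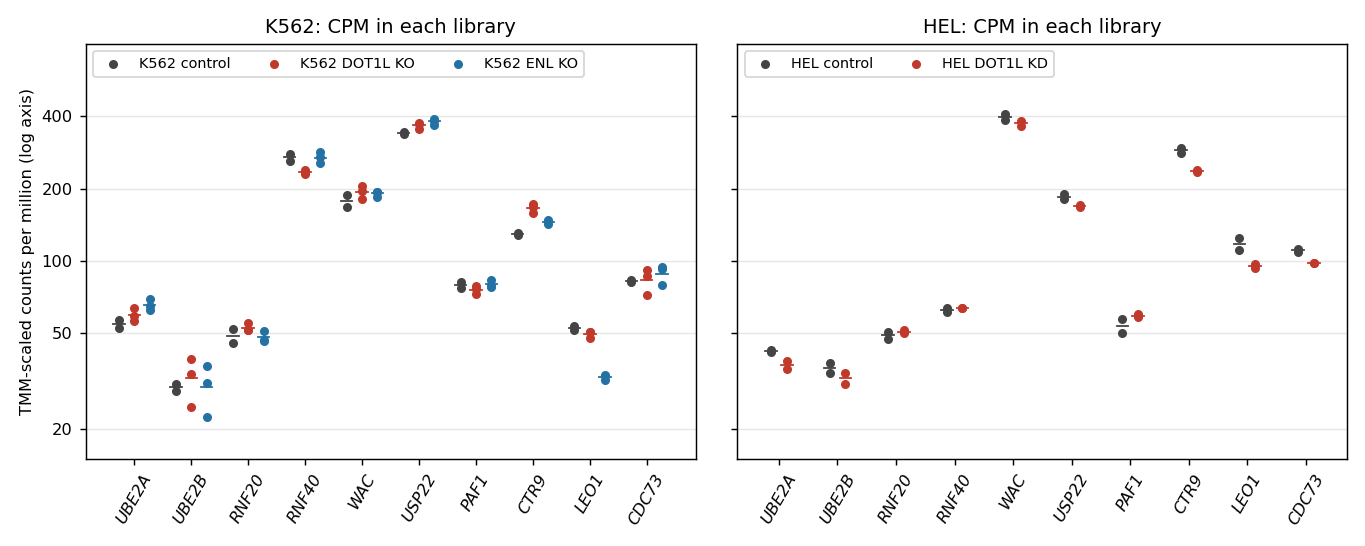
TMM-scaled CPM (log axis) of the 10 members in each K562 library (left) and each HEL library (right). Points are libraries and short lines are group means. LEO1 in the 3 ENL KO libraries lies between 32.0 and 33.6 CPM, below the 2 control libraries, and CTR9 lies above control in the DOT1L KO and below control in the HEL DOT1L KD.

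The first comparison asked what the loss of DOT1L did to these upstream genes in K562. CTR9 rose and RNF40 fell, and the other 8 members did not pass the test. More members passed when the replicate number was added as a block, as given at the end. CTR9, the large scaffold subunit of the core, was at 128 and 131 CPM in the control libraries and at 168, 173 and 158 CPM in the DOT1L KO libraries. Every knockout library was above both controls. The log2 fold change was 0.36 (SE 0.057, edgeR's quasi-likelihood test, adjusted over all genes by the Benjamini-Hochberg method, adjusted p = 0.000143), a 1.28-fold level, and it stayed past the threshold of 0.05 without any of the 5 libraries. Where 1 library was left in a group, it was assumed to vary like the others. Of 19 other genes within 2 Mb of CTR9 with a mean of at least 5 CPM, 9 passed as higher and 4 as lower (median 0.21). Within 10 Mb, 31 of 102 such genes passed as higher and 29 as lower (median -0.02). Among all 10296 genes at that level, 22.9% passed as higher and 29.0% as lower. The part of a local shift in the CTR9 change was not tested. RNF40 was at 279.8 and 261.5 CPM in control and at 238, 233 and 229.6 CPM in the DOT1L KO. Its groups did not overlap either, and its log2 fold change was -0.21 (SE 0.058, adjusted p = 0.00725). Without control replicate 1 the RNF40 change was -0.17 with an adjusted p of 0.0962, so that call rested on this library.

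In all, 2 of 10 members were called, against 51.1% of 14301 genes, 26.9% higher and 24.2% lower. The members had a median absolute log2 fold change of 0.12, against 0.29 over all genes tested. None of the members changed by at least 1 on the log2 scale, which 15.8% of genes did. The groups did not overlap in 4 of 10 members, against 68.1% of all genes, and 2 of these 4, USP22 and LEO1, did not pass. USP22 was at 338 and 344 CPM in control and 371.5, 374 and 354.5 CPM in DOT1L KO (log2 fold change 0.10, 95% interval -0.0078 to 0.22). LEO1 was at 53.7 and 51.7 CPM in control and 50.4, 50.6 and 47.7 CPM in DOT1L KO (-0.09, interval -0.23 to 0.05).

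The conjugating enzymes overlapped between the groups. UBE2A was at 52.4 and 56.9 CPM in control and 58.9, 63.4 and 56.2 CPM in DOT1L KO (log2 fold change 0.12, 95% interval -0.03 to 0.28). UBE2B was the least settled member, at 30.8 and 28.8 CPM in control and 24.8, 38.9 and 33.8 CPM in DOT1L KO, and its interval ran from -0.26 to 0.53. RNF20, the other ligase subunit, was at 45.7 and 51.8 CPM in control and 51.6, 55.1 and 51.4 CPM in DOT1L KO (0.11, interval -0.05 to 0.28). The adaptor WAC was at 167 and 188 CPM in control and 182, 205 and 195 CPM in DOT1L KO (0.13, interval -0.02 to 0.27). PAF1 was at 82.0 and 76.9 CPM in control and 78.996, 76.1 and 72.7 CPM in DOT1L KO (-0.07, interval -0.20 to 0.07). CDC73 was at 81.6 and 83.1 CPM in control and 72.1, 91.2 and 86.2 CPM in DOT1L KO (0.02, interval -0.19 to 0.22). Every one of these intervals spans 0. With an offset for the median of each chromosome in each library, an alternative chosen after the data were seen, 2 more members passed: WAC at 0.21 (SE 0.057, adjusted p = 0.00732) and USP22 at 0.12 (adjusted p = 0.0397).

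**Figure D2:**
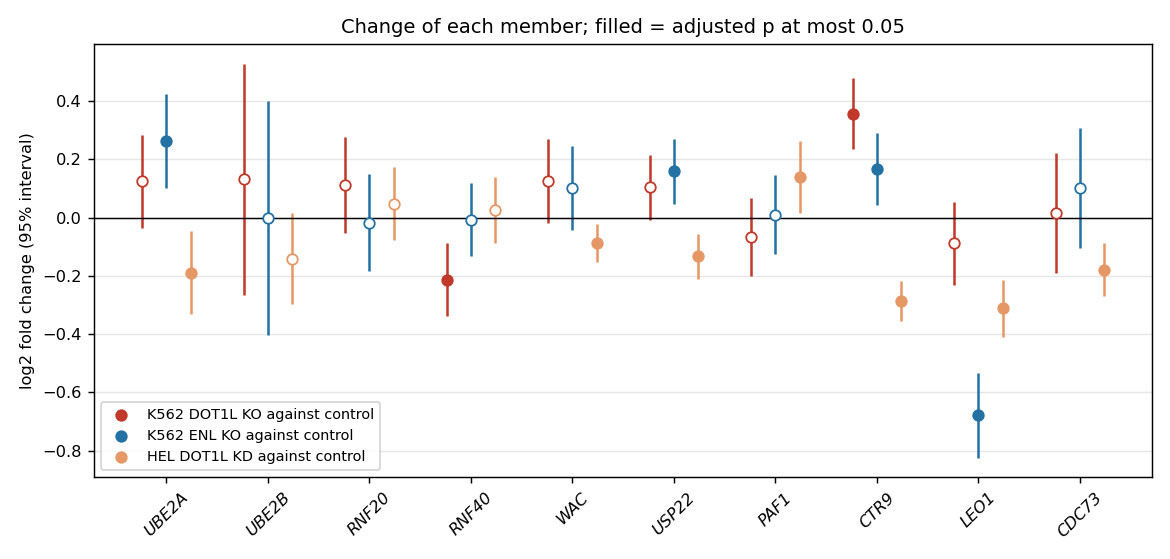
Log2 fold change of each member against its control in the 3 depletion comparisons, with 95% intervals from edgeR. Filled points passed an adjusted p of 0.05 and open points did not. LEO1 in the K562 ENL KO is the lowest point at -0.68, and CTR9 is above 0 in K562 and below 0 in HEL.

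Loss of ENL gave another pattern in the same cells. LEO1 fell clearly, while UBE2A, USP22 and CTR9 rose by less. LEO1, a subunit of the PAF1 complex, was at 53.7 and 51.7 CPM in the control libraries and at 33.1, 33.6 and 32.0 CPM in the ENL KO libraries. The 3 knockout libraries were close together and far below both controls. The log2 fold change was -0.68 (SE 0.068, adjusted p = 3.11e-06), a level of 0.625 of control, and it stayed between -0.70 and -0.65 when each library was left out. The remaining PAF1 complex genes outside the 10 moved the same way: RTF1 was at 110 and 121 CPM in control and 94.9, 94.3 and 98.9 CPM in ENL KO (log2 fold change -0.27, adjusted p = 0.00303), and WDR61 was at 58.8 and 64.9 CPM in control and 49.8, 47.5 and 47.1 CPM in ENL KO (-0.36, adjusted p = 0.000700).

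LEO1, RTF1 and WDR61 all lie on chromosome 15, and most genes of that chromosome were lower in the ENL KO libraries. Of the 312 other chromosome 15 genes with a mean of at least 5 CPM, 255 passed the threshold as lower (81.7%) and 9 as higher, with a median log2 fold change of -0.49. Over all 10296 genes at that level, 21.9% passed as lower and the median was 0.03. Within 500 kb of LEO1, 6 of 7 genes passed as lower, and all 7 values were below 0. The chromosome 15 median against the control mean was -0.51, -0.48 and -0.47 in the 3 ENL KO libraries and between -0.06 and 0.0044 in the 3 DOT1L KO libraries. LEO1 stood at percentile 24.6 of its chromosome's genes in this comparison, WDR61 at 67.1 and RTF1 at 78.6. Chromosome 4 was the next lowest, with 203 of 347 genes lower (58.5%) and a median of -0.32, and the median of every other chromosome lay between -0.05 and 0.10.

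With the same chromosome offset the LEO1 change was -0.20 (SE 0.066, adjusted p = 0.0260). RTF1 was then higher rather than lower, at 0.21 (adjusted p = 0.0110), and WDR61 was at 0.11 (adjusted p = 0.191). Relative to the median of chromosome 15, then, LEO1 was still lower but by less, and RTF1 and WDR61 were not lower. Without the offset, the 7 genes within 500 kb of LEO1 had a median of -0.60, against -0.68 for LEO1. The chromosome offset does not remove a local shift of this kind, and LEO1 was not tested against its neighbours. These are RNA counts, and what lowered the chromosome was not tested. The ENL KO labels name no sequencing lane while those of control and DOT1L KO do, so the knockout and a batch cannot be told apart either.

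**Figure D3:**
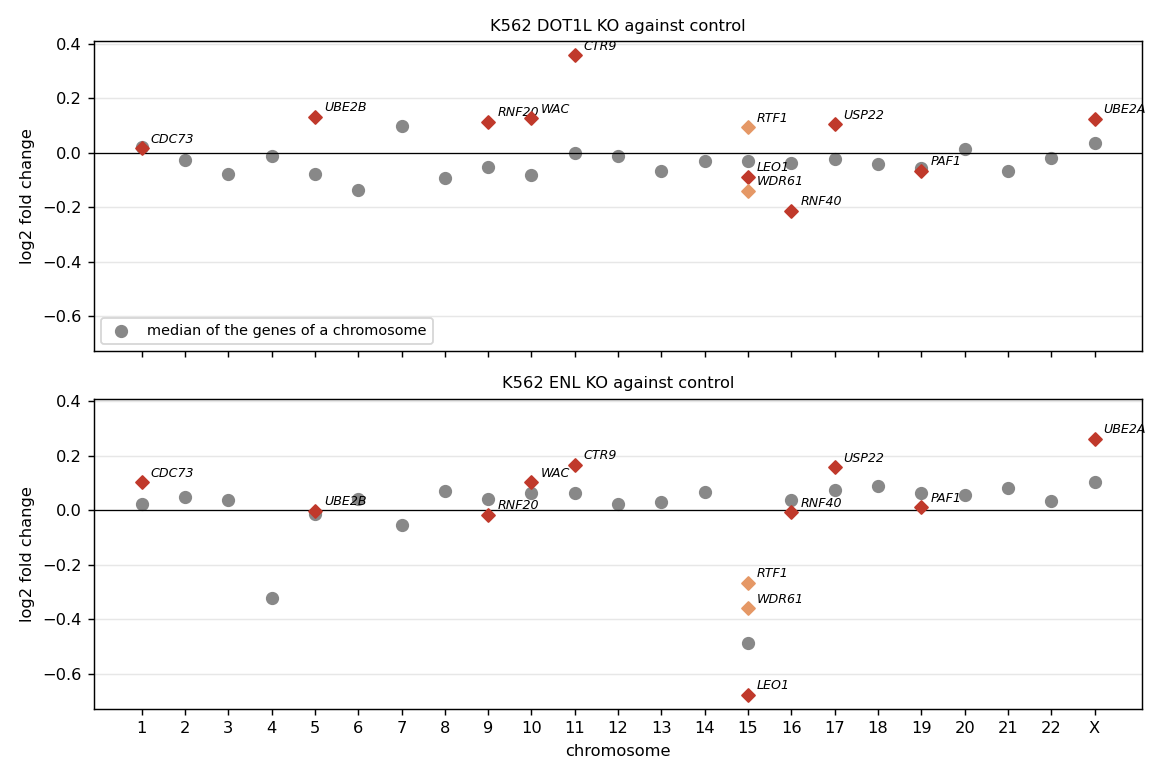
Median log2 fold change of the genes of each chromosome (grey points, genes with a mean of at least 5 CPM) in the K562 DOT1L KO (top) and ENL KO (bottom) against control, with the 10 members (red diamonds) and RTF1 and WDR61 (orange diamonds) on their chromosomes. In the ENL KO the chromosome 15 median is -0.49, and LEO1, WDR61 and RTF1 lie around it.

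**Figure D4:**
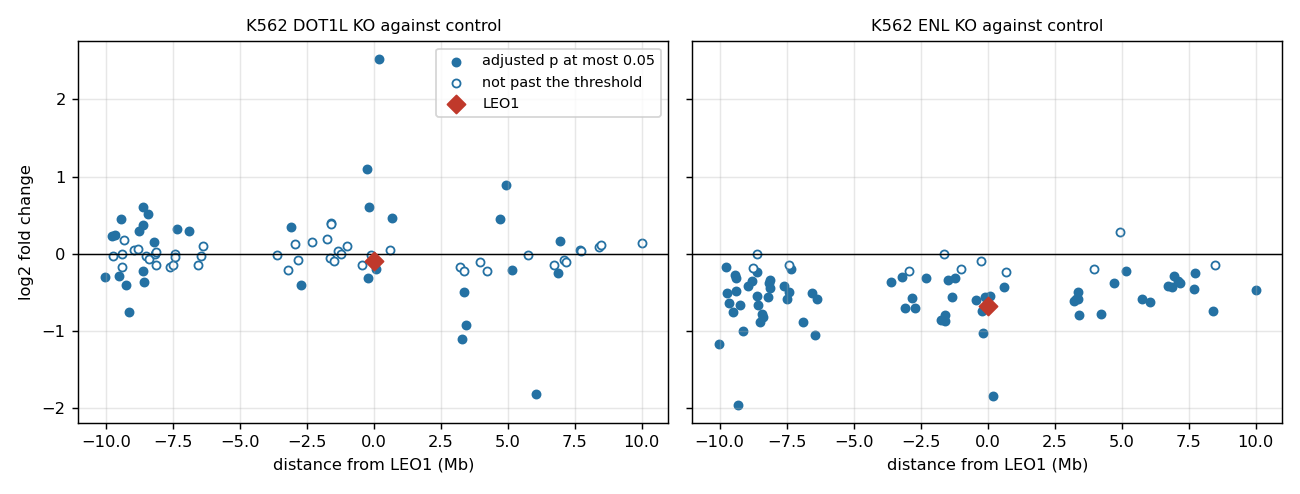
Log2 fold change of genes within 10 Mb of LEO1 against their distance from it in Mb, in the K562 DOT1L KO (left) and ENL KO (right) against control. Filled circles passed an adjusted p of 0.05, open circles did not, and the red diamond is LEO1. In the ENL KO 69 of 80 neighbours passed as lower and none as higher, and in the DOT1L KO 15 passed as lower and 19 as higher.

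The 3 increases in the ENL KO were smaller and less settled. UBE2A was at 52.4 and 56.9 CPM in control and at 62.7, 69.3 and 64.6 CPM in the ENL KO (log2 fold change 0.26, SE 0.074, adjusted p = 0.0122). Without control replicate 1 or without ENL KO replicate 2 the call was lost, with adjusted p up to 0.139. USP22 was at 338 and 344 CPM in control and 384, 391 and 367 CPM in ENL KO (0.16, SE 0.052, adjusted p = 0.0257), and it passed in 1 of 5 fits that left out a library, the fit without ENL KO replicate 3, with adjusted p up to 0.144. CTR9 was at 128 and 131 CPM in control and 147, 142 and 147 CPM in ENL KO (0.17, SE 0.057, adjusted p = 0.0310). The CTR9 call was lost in all 5 such fits (adjusted p 0.0543 to 0.176), and all 3 increases were lost under the chromosome offset (adjusted p 0.0992 for UBE2A, 0.151 for USP22 and 0.141 for CTR9).

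In the ENL KO 4 of 10 members were called, against 41% of all genes, 18.8% higher and 22.2% lower, so the share was near the background. These 4 were also the members whose groups did not overlap, against 59.6% of all genes. The median absolute log2 fold change was 0.10 for the members and 0.25 for all genes. The ligase did not pass: RNF40 was at 279.8 and 261.5 CPM in control and 283, 269.7 and 255 CPM in ENL KO (95% interval -0.13 to 0.12), and RNF20 was at 46.6, 47.0 and 51.2 CPM in ENL KO (interval -0.18 to 0.15). PAF1 at 83.1, 78.8 and 78.1 CPM in ENL KO had an interval of -0.13 to 0.15. UBE2B at 22.4, 31.0 and 36.5 CPM, WAC at 184, 194 and 194 CPM and CDC73 at 79.2, 92.3 and 94.1 CPM overlapped their controls. The intervals were -0.40 to 0.40 for UBE2B, -0.04 to 0.25 for WAC and -0.10 to 0.31 for CDC73.

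Set directly against each other, the knockouts differed in 3 members. LEO1 was higher in the DOT1L KO than in the ENL KO by 0.59 (SE 0.061, adjusted p = 1.89e-06), CTR9 was higher by 0.19 (SE 0.050, adjusted p = 0.00494) and RNF40 was lower (-0.21, SE 0.052, adjusted p = 0.00370). Each of the 3 held without any of the 6 libraries. On chromosome 15, 258 of 313 genes were higher in this contrast too, with a median of 0.41. With the chromosome offset LEO1 was at 0.15 (adjusted p = 0.0415), RNF40 at -0.14 (adjusted p = 0.0170) and CTR9 at 0.25 (adjusted p = 0.000565), and RNF20 (0.22, adjusted p = 0.0133) and WAC (0.16, adjusted p = 0.0177) passed as higher. Over all genes 60.2% were called, 31.8% higher and 28.3% lower. The groups did not overlap in 4 members, these 3 and RNF20, against 63.3% of all genes. UBE2A was at -0.14 (95% interval -0.28 to 0.0038), and the other 6 members had adjusted p between 0.118 and 0.748. Each knockout's own change is measured against the same 2 control libraries, while this contrast does not take their means.

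In HEL the knockdown of DOT1L was followed by lower levels of the PAF1 complex genes CTR9, LEO1 and CDC73. CTR9 was at 281 and 296 CPM in the controls and 239 and 235 CPM after knockdown, so both knockdown libraries were below both controls. Its log2 fold change was -0.29 (SE 0.035, adjusted p = 5.94e-10). LEO1 was at 111 and 124 CPM in control and 96.8 and 93.3 CPM after knockdown (-0.31, SE 0.048, adjusted p = 2.94e-07). CDC73, the parafibromin subunit, was at 109 and 112 CPM in control and 98.0 and 97.8 CPM after knockdown (-0.18, SE 0.046, adjusted p = 0.000825). These 3 passed under every alternative tried here other than the minimum log2 fold change of 1 and without any of the 4 libraries. On chromosome 15 the median HEL change was -0.07, and with the chromosome offset LEO1 was at -0.23 (adjusted p = 6.94e-05). All 4 other genes within 500 kb of CDC73 with a mean of at least 5 CPM passed as lower (median -0.69). Of 89 such genes within 10 Mb of LEO1, 48 passed as lower and 13 as higher (median -0.17). Of 6 within 500 kb of CTR9, 0 passed as lower and 4 as higher. Over all genes at that level, 32.4% passed as lower and 28.2% as higher. The chromosome offset does not remove such local shifts, and their part in these changes was not tested.

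PAF1 itself was not lower. It was at 57.2 and 50.3 CPM in control and 59.97 and 58.4 CPM after knockdown (log2 fold change 0.14, SE 0.061, adjusted p = 0.0498). That increase sat at the threshold and was lost in 3 of 4 fits that left out a library, all but the fit without control replicate 1 (adjusted p up to 0.621), with DESeq2 (0.310) and with the chromosome offset (0.04, adjusted p = 0.571). Of the other complex subunits, WDR61 rose (0.31) and RTF1 did not pass (-0.07). USP22 was at 181 and 189 CPM in control and 167 and 171 CPM after knockdown (-0.13, SE 0.038, adjusted p = 0.00307). UBE2A was at 41.7 and 42.5 CPM in control and 38.2 and 35.6 CPM after knockdown (-0.19, SE 0.071, adjusted p = 0.0203), and WAC was at 385 and 409 CPM in control and 383 and 365 CPM after knockdown (-0.09, SE 0.033, adjusted p = 0.0216). Without control replicate 2 or without knockdown replicate 2 the calls of UBE2A and WAC were lost (adjusted p up to 0.182 and 0.322), and both were lost with the chromosome offset, UBE2A at -0.10 (adjusted p = 0.240) and WAC at -0.04 (adjusted p = 0.309).

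The scaling of the libraries bore on the smaller HEL changes. With upper-quartile factors USP22 was at -0.06 (adjusted p = 0.197), UBE2A at -0.12 (0.158) and WAC at -0.01 (0.746), and 61.4% of all called genes were higher, against 49.1% with TMM factors. The ligase did not pass: RNF20 was at 47.3 and 50.7 CPM in control and 49.9 and 51.4 CPM after knockdown (95% interval -0.08 to 0.17), and RNF40 was at 63.7 and 61.4 CPM in control and 63.5 and 63.9 CPM after knockdown (-0.09 to 0.14). UBE2B was at 34.1 and 37.5 CPM in control and 34.1 and 30.8 CPM after knockdown (-0.30 to 0.02). In all, 7 of 10 members were called in HEL, 6 lower and 1 higher, against 55% of 12635 genes, 28% lower and 27% higher. The same 7 were those whose groups did not overlap, against 75.9% of all genes. Their median absolute log2 fold change of 0.14 was below the 0.24 of all genes, and none reached 1, which 5.84% of genes did.

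CTR9 moved in opposite directions in the lines. The difference between its HEL and its K562 change was -0.63 on the log2 scale (SE 0.075, adjusted p = 8.70e-07) in a joint fit of 9 libraries, and it held without any of them. RNF40 differed by 0.26 (SE 0.081, adjusted p = 0.0156), USP22 by -0.22 (SE 0.071, adjusted p = 0.0180) and UBE2A by -0.30 (SE 0.106, adjusted p = 0.0311). Each of those 3 calls passed in 5 of 9 such fits, with adjusted p up to 0.0916 for RNF40, 0.104 for USP22 and 0.163 for UBE2A. All 3 were lost without K562 control replicate 1, HEL control replicate 2 or HEL DOT1L KD replicate 2. RNF40 and USP22 were also lost without HEL DOT1L KD replicate 1, and UBE2A without HEL control replicate 1. With the chromosome offset RNF40 was at 0.13 (adjusted p = 0.204) and UBE2A at -0.22 (adjusted p = 0.111), both no longer called, USP22 was at -0.28 (adjusted p = 0.00330), and WAC passed at -0.23 (adjusted p = 0.0250). LEO1, which fell in HEL and did not pass in the K562 DOT1L KO, differed by -0.20 (95% interval -0.39 to -0.02, adjusted p = 0.0810), so its responses were not shown to differ. Over all genes 38.9% were called for this difference, 19.8% higher and 19.1% lower. Knockdown against knockout, read against fragment counting and the cell line go together here and cannot be told apart.

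The largest differences of the members were between the control libraries of the lines. RNF40 was lower in HEL by 2.04 on the log2 scale (log2 fold change -2.04, SE 0.060, adjusted p = 3.49e-18), a level of 0.243 of that in K562. USP22 (-0.81), PAF1 (-0.49) and UBE2A (-0.31) were lower in HEL too. WAC (1.23), LEO1 (1.23), CTR9 (1.22), CDC73 (0.50) and UBE2B (0.34) were higher in HEL. UBE2B lost its call without K562 control replicate 2 or HEL control replicate 2 (adjusted p up to 0.169). RNF20 was at 0.08 (95% interval -0.08 to 0.24). Thus 9 of 10 members were called, 5 higher and 4 lower, against 85.6% of 15367 genes, 41.3% higher and 44.2% lower, and 4 members reached 1 on the log2 scale, against 57.2% of genes. The groups of the 9 called members did not overlap, as in 92.7% of all genes.

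These differences also ran along chromosomes. On chromosome 16, where RNF40 lies, 382 of 493 other genes were lower in HEL (77.5%), with a median log2 fold change of -1.17, against 46.4% and a median of -0.06 over all genes at that level. Within 500 kb of RNF40, 30 of 34 genes were lower and 3 higher. RNF40 stood at percentile 26.1 of the 494 genes of its chromosome in this comparison. With the chromosome offset RNF40 was still lower, at -0.91 (SE 0.056, adjusted p = 2.27e-12). PAF1 turned from -0.49 to 0.27 (adjusted p = 0.000750), as the chromosome 19 median was -0.84, and UBE2A moved to 0.01 (adjusted p = 0.880). UBE2A was also at 0.03 with an offset for exonic length. RNF20 moved from 0.08 to 0.65 and was then called higher in HEL (adjusted p = 6.56e-08), and CDC73 moved from 0.50 to 0.18 (adjusted p = 0.0318). LEO1 was higher by 0.79 (adjusted p = 6.57e-10) with the chromosome offset and CTR9 by 1.42 (adjusted p = 6.45e-16). RNF40 shares 633 exonic bases, 10.45% of its length, with CCDC189 on the opposite strand, and CCDC189 had 11 to 201 counts per library, against at least 773 for RNF40. The use of strand in counting is not given in the sources used here.

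The balance between partners was described as a ratio of TPM in each library, with no test. LEO1 to PAF1 was 0.676 and 0.693 in K562 control, 0.658, 0.686 and 0.677 in DOT1L KO, and 0.411, 0.440 and 0.423 in ENL KO, so the ENL KO libraries stood apart. LEO1 lies on chromosome 15, where the median log2 fold change in the ENL KO was -0.49. PAF1 lies on chromosome 19, where that median was 0.06. The ratio was not corrected for this and does not single out LEO1 from its chromosome. CTR9 to PAF1 was 0.800 and 0.875 in K562 control, 1.09, 1.16 and 1.11 in DOT1L KO, and 0.906, 0.926 and 0.968 in ENL KO. These 3 groups did not overlap. In HEL, CTR9 to PAF1 was 2.52 and 3.02 in control and 2.04 and 2.06 after knockdown, and LEO1 to PAF1 was 2.01 and 2.55 in control and 1.66 and 1.65 after knockdown. CDC73 to PAF1 was 0.758 and 0.886 in HEL control and 0.648 and 0.664 after knockdown. In HEL, then, all 3 ratios were lower after knockdown in both libraries. They share PAF1 as the denominator, so they are not 3 separate results. PAF1 was at 61.3 and 53.2 TPM in HEL control and 62.3 and 60.4 TPM after knockdown.

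The ligase partners were far from equal at the RNA level in K562. RNF20 to RNF40 was 0.251 and 0.305 in K562 control, 0.333, 0.364 and 0.344 in DOT1L KO, and 0.253, 0.268 and 0.309 in ENL KO, so the DOT1L KO libraries were above the rest. In HEL the same ratio was 1.14 and 1.27 in control and 1.21 and 1.24 after knockdown. UBE2A to UBE2B was 2.39 and 2.78 in K562 control, 3.34, 2.28 and 2.33 in DOT1L KO, and 3.93, 3.14 and 2.48 in ENL KO, and these groups overlapped. In HEL it was 1.71 and 1.59 in control and 1.57 and 1.62 after knockdown. UBE2A and UBE2B are close paralogs, and reads shared between them could be split or dropped in counting, so their ratio is uncertain.

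**Figure D5:**
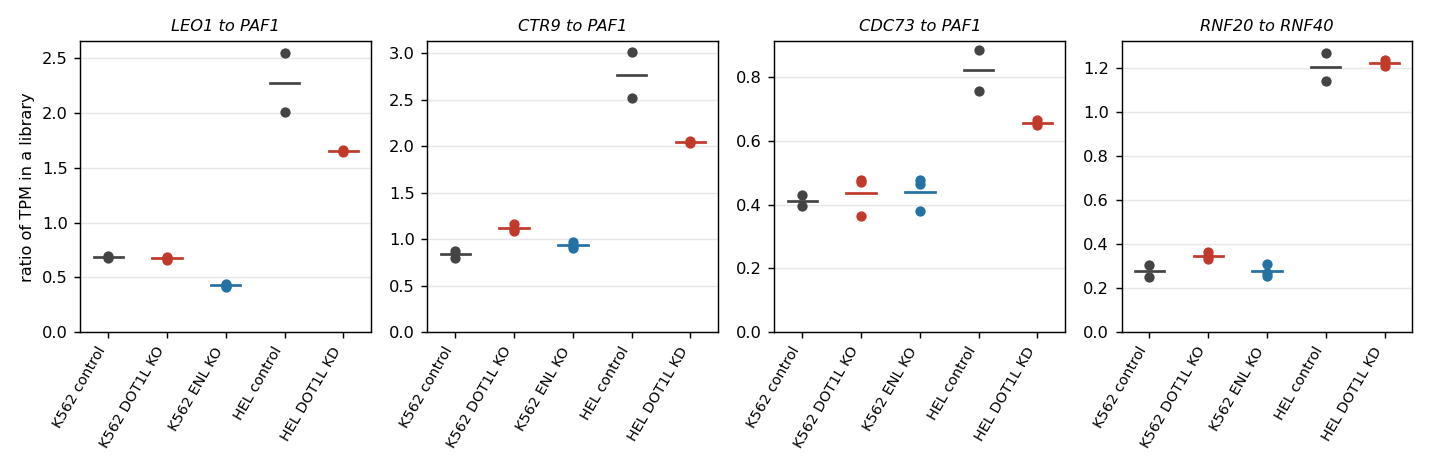
Ratio of TPM values of 2 members in each library (points) with the group mean (line), for LEO1, CTR9 and CDC73 against PAF1 and for RNF20 against RNF40. Each axis starts at 0. LEO1 to PAF1 is between 0.411 and 0.440 in the ENL KO and between 0.676 and 0.693 in K562 control. LEO1 lies on chromosome 15, where most genes were lower in the ENL KO.

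Around the members, the rest of the pathway was read from lists by role. UBA1, the activating enzyme at the head of the cascade, rose in the DOT1L KO, from 357 and 351 CPM in control to 456, 457 and 428 CPM (log2 fold change 0.33, adjusted p = 0.000258). It did not pass in the ENL KO (0.05) or in HEL (-0.06). RTF1 and WDR61 did not pass in the DOT1L KO (0.09 and -0.14). In HEL WDR61 rose, from 43.0 and 43.5 CPM to 55.6 and 51.8 CPM (0.31, adjusted p = 4.09e-05), while RTF1 was at -0.07.

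USP22 shares the adaptors ATXN7L3 and ENY2 with the deubiquitinases USP27X and USP51. Called shares in the lists that follow are to be read against those of all genes: 51.1% in the DOT1L KO (26.9% higher, 24.2% lower), 41% in the ENL KO (18.8% higher, 22.2% lower) and 55% in HEL (27% higher, 28% lower). Of 5 genes of the SAGA module other than USP22, 3 were higher and 1 lower in the DOT1L KO: the adaptor ATXN7L3 was at 0.45 (adjusted p = 0.000502), ATXN7L1 at 0.86 (2.09e-05), ATXN7L2 at 0.42 (0.00196) and ATXN7, which anchors the module, at -0.31 (0.0157). Of 5 other H2B deubiquitinases, USP27X rose by 0.97 (adjusted p = 2.08e-05) and USP51 by 1.10 (adjusted p = 0.000219), both from low levels of 5.68 and 2.72 CPM on average in control. USP3 was lower in both knockouts, at -0.52 in DOT1L KO (adjusted p = 5.56e-05) and -0.60 in ENL KO (adjusted p = 2.91e-05). USP3 lies on chromosome 15, and its ENL KO value with the chromosome offset was -0.12 (adjusted p = 0.197). USP44 was lower in the ENL KO (-1.33, adjusted p = 1.71e-05). In the ENL KO 1 SAGA gene was higher (ENY2, 0.24, adjusted p = 0.0174) and 1 lower (ATXN7L2, -0.46, adjusted p = 0.00217). The ENY2 call was lost with the chromosome offset (0.18, adjusted p = 0.0685), and that of ATXN7L2 was kept (-0.48, adjusted p = 0.00206). In HEL 1 SAGA gene was higher and 3 were lower, among them ATXN7 at -0.44 (adjusted p = 3.90e-09), and the 5 other deubiquitinases had adjusted p between 0.171 and 0.636.

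Among 6 elongation factors, 2 were higher in the DOT1L KO, the histone chaperone SUPT6H at 0.18 (adjusted p = 0.0116) and the pausing factor subunit SUPT4H1 at 0.28 (adjusted p = 0.00201), and 1 was higher in the ENL KO, SUPT6H at 0.15 (adjusted p = 0.0401). The chromosome offset ended that ENL KO call (0.08, adjusted p = 0.220), and SSRP1 then passed as lower (-0.16, adjusted p = 0.00921). In HEL SUPT6H (-0.18, adjusted p = 2.48e-05) and SUPT4H1 (-0.20, adjusted p = 0.000588) were lower, and SUPT16H (0.10, adjusted p = 0.00747) and SSRP1 (0.08, adjusted p = 0.0460), the subunits of the FACT chaperone, were higher. Of 8 subunits of the SET1 complexes, which methylate the tail of histone H3 and are stimulated by ubiquitinated H2B, 2 were higher and 3 lower in the DOT1L KO, 3 higher and 2 lower in the ENL KO and 3 higher and 2 lower in HEL. That is 5 of 8 in each comparison, against 51.1%, 41% and 55% of all genes, and with so few genes no difference from the background was shown. The 3 increases in the ENL KO were lost with the chromosome offset (adjusted p 0.0612 to 0.462), while the 2 decreases still passed. The smallest adjusted p values among the 8 SET1 subunits were those of SETD1B in the DOT1L KO (0.49, adjusted p = 0.000132), SETD1A in the ENL KO (-0.21, adjusted p = 0.0120) and WDR82 in HEL (-0.52, adjusted p = 2.19e-18). In no depletion comparison did the members or these lists, apart from USP44 and USP51, contain a called change of at least 1 on the log2 scale.

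Genes with a pattern like that of LEO1 were looked for over the 8 K562 libraries, as Pearson's r of log2 CPM over 9119 genes with a mean of at least 10 CPM. The 3 highest were CCND2 (r = 0.997), C4orf46 (r = 0.997) and EFHD1 (r = 0.994). This is a description over libraries that fall into 3 groups, and 5.78% of those genes had an r above 0.9. The r values were computed without the chromosome offset. In the ENL KO most chromosome 15 genes and 203 of 347 chromosome 4 genes were lower, and C4orf46 is named for chromosome 4. The part of these shifts in the likeness was not tested. Of the other members, r ran from -0.77 for UBE2A to 0.36 for RNF20. In HEL, with 4 libraries, NEDD1, RABEP1 and HSPA5 were nearest to CTR9, but 31.6% of 9049 genes had an r above 0.9 there, so 4 libraries single out no gene.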

How the data were processed

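The authors deposited whole-number counts per gene, named as read counts for HEL and fragment counts for K562, with the exons and the exonic length of each of 28131 genes. The submitters' processing notes name fastp 0.13.1, HISAT2 2.1.0 and featureCounts 1.6.1 and the builds hg38 and hg19, without saying which file each made. Per the labels, libraries were polyA-selected and strand-specific, and the use of strand in counting is not given in the sources used here. All 10 members overlapped their RefSeq position on GRCh38.p14, and 26353 symbols (93.7%) matched. Groups came from the labels.

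Genes were filtered with filterByExpr (minimum count 10, total 15), scaled with TMM factors and tested with edgeR 4.0.16 in R 4.3.3 (glmQLFit and glmQLFTest), the K562 groups together, HEL alone and 9 libraries jointly for the lines. P-values were Benjamini-Hochberg adjusted over all genes tested, with a threshold of 0.05. All 10 members passed the filter in each fit. The 2 K562 control libraries stand for the 3 planned, as columns 2 and 3 were identical. K562 therefore has 8 distinct libraries. Biological coefficients of variation were 6.34% in K562, 1.83% in HEL and 4.88% jointly. A floor of 3 counts was worth 0.103 to 0.247 CPM, for counting error only. Scripts were tested on simulated data.

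Members and lists were chosen with earlier results of these data known. All members are named. Of each list, at most 4 genes with the smallest adjusted p per comparison are named, RTF1, WDR61 and UBA1 always, with the targeted genes. Alternatives were scaling, DESeq2 1.42.0, no filter, exonic-length offset, replicate block, unmerged columns, pairwise fits, a minimum fold and leaving out libraries. The comparison with neighbouring genes and the chromosome offset were added after the data were seen. The offset used chromosomes with at least 20 genes of at least 5 CPM. The protein identity of paralogs was not analysed here.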

Additional observations from a re-analysis of the deposited data

Results flagged for a closer look

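The response to DOT1L depletion differed between HEL (knockdown) and K562 (knockout) in 4 members, by a test of the difference itself in edgeR's joint fit with adjustment over all 15367 genes, of which 38.9% were called, so the share of members was near the background. The HEL change minus the K562 change on the log2 scale was -0.63 for CTR9, -0.30 for UBE2A, -0.22 for USP22 and 0.26 for RNF40. CTR9 passed without any of the 9 libraries and with the chromosome offset. UBE2A, USP22 and RNF40 each passed in 5 of 9 fits that left out a library, and UBE2A and RNF40 did not pass with the chromosome offset (adjusted p = 0.111 and 0.204).

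Of the genes listed around the members, those that passed the same test are given here, against 38.9% of all genes. Whether they pass with a library left out or with the chromosome offset is not reported here. The difference was 0.47 for WDR61, 1 of 2 other PAF1 complex subunits, and -0.38 for the activating enzyme UBA1. In the SAGA module other than USP22, 3 of 5 genes passed: ATXN7L1 at -1.42, ATXN7L2 at -0.45 and ENY2 at -0.32. Of 5 other H2B deubiquitinases, USP51 (-1.43) and USP27X (-0.82) passed below 0 and USP3 (0.49) above 0. Of 6 elongation factors, SUPT6H and SUPT4H1 passed, at -0.34 and -0.46. Of 8 SET1 subunits, SETD1A (0.48) and ASH2L (0.34) passed above 0, and SETD1B (-0.42) and WDR82 (-0.59) below 0. The targeted gene DOT1L itself differed by -1.10 and MLLT1 by 0.39. No group held the 4 libraries needed to test a single library as an outlier.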

How the results depend on the processing

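The number of members called moved in several alternatives. In the K562 DOT1L KO it was 2, and it became 4 with library-size scaling, 4 with the chromosome offset and 1 to 2 when a library was left out. In the ENL KO it was 4, and it became 2 with upper-quartile scaling, 1 with the chromosome offset and 1 to 3 when a library was left out. Between the knockouts it was 3, and 5 with the chromosome offset. In HEL it was 7, and it became 4 with upper-quartile scaling, 4 with DESeq2, 4 with the length offset, 4 with the chromosome offset and 4 to 8 when a library was left out. For the difference between the lines' responses it was 4, and it became 3 with the chromosome offset (CTR9, USP22 and WAC, with RNF40 and UBE2A lost) and 1 to 8 when a library was left out. With a call that also asked for an absolute log2 change of 1, it was 0 in each of these comparisons and 4 between the control libraries of the lines, against 9. The cause of these moves was not tested.

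With the replicate number as a block, the count was 5 in the DOT1L KO and 5 between the knockouts, also with the length offset, and the block with the length offset gave 4 in HEL. Replicate numbers were not taken to pair the libraries in the main fits. Deviations from the group means of same-numbered libraries correlated at 0.46 and 0.31 (control and DOT1L KO), 0.49 and 0.11 (control and ENL KO), 0.68, 0.088 and 0.32 (DOT1L KO and ENL KO) and -0.051 (HEL). DOT1L KO library 2 correlated best with ENL KO library 3. In K562, every pair of a library 1 with a differently numbered library of another group correlated negatively, from -0.58 to -0.11. The 2 control libraries mirror each other in such deviations. Whether the K562 libraries numbered 1 share a batch was not tested.

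Changes of sign, in log2 units, came from members that were not called unless named otherwise. In the DOT1L KO, CDC73 was -0.0044 with no filter, -0.026 with the block, -0.011 with the chromosome offset and -0.054 at its lowest with a library left out, and UBE2B then ran from -0.022 to 0.29. In the ENL KO, PAF1 was -0.015 with upper-quartile scaling, -0.048 with the chromosome offset and -0.034 to 0.058 with a library left out. UBE2B was 0.0057 with DESeq2, 0.023 with the chromosome offset, 0.015 with the identical columns kept and -0.16 to 0.18 with a library left out. RNF40 was 0.018 with the block, 0.017 with the length offset, 0.053 with both, 0.0099 with the identical columns kept and 0.043 at its highest, and RNF20 ran from -0.10 to 0.078. Between the knockouts, USP22 was 0.035 and PAF1 0.043 with the chromosome offset, and with a library left out UBE2B ran from -0.042 to 0.30, WAC from -0.015 to 0.071 and CDC73 from -0.16 to 0.0081. In HEL, RNF40 was -0.054 with the chromosome offset and -0.0032 to 0.050 with a library left out, and RNF20 ran from -0.0058 to 0.097. For the lines' responses RNF20 ran from -0.13 to 0.059. Between the lines' controls, UBE2A, called lower, was 0.029 with the length offset, 0.029 with the block as well and 0.013 with the chromosome offset; PAF1, called lower, was 0.27 with the chromosome offset; RNF20 ran from -0.023 to 0.16. Of the other values recomputed, 35 newly passed the threshold, 41 no longer did and the rest kept direction and side.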
